A study of Oryza sativa with 26 samples.

Results

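At 60 days after sowing, 3 lamina joints of rice stood at 3 different stages, and they were compared with each other here. The lamina joint is the hinge between the blade and the sheath of a leaf. The groups were the last joint at stage 2, the second joint at stage 4 and the third joint at stage 5, counted back from the last leaf. Each group has 2 arrays, so 6 of the 26 arrays of the study were taken on that day. The other arrays cover the same joints on other days, and the leaf control is a piece of the third leaf taken at stage 4. All groups are Oryza sativa, japonica cultivar Zhonghua 11, grown in a greenhouse with no mutation or treatment. Per the labels, the stage 2 joint was young and white or creamy, the stage 4 joint was mature with a leaf angle of 0, and the stage 5 joint was opening. Joints were cut by hand into liquid nitrogen, and no cell type was separated. Arrays of a group are biological replicates per the labels, but separate plants are not stated, and p-values therefore cover only the spread among these arrays. Stage and leaf position change together on that day, and their effects cannot be told apart from the 6 arrays alone.

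A young joint divides and enlarges its cells, then lays down cellulose and lignin in the walls of its supporting and conducting tissue. The blade bends away from the stem when cells on the upper side of the mature joint elongate more than those on the lower side. Brassinosteroids and auxin are known in rice to set how far the joint bends, and expansins and glucanases are wall proteins that act when walls yield.

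Values are log2 expression per probe set, so a difference of 1 is a 2-fold change. A probe set was called when limma's Benjamini-Hochberg adjusted p, over all 57258 probe sets tested, was under 0.05 and the difference was at least 2-fold. The joint gene LG1, needed to form the ligule and joint, read 8.93 and 8.94 in the last joint, 8.40 and 8.91 in the second and 8.08 and 8.54 in the third, against a mean of 5.93 in the leaf control. LA, the LAZY1 gene of shoot gravitropism, read 11.36 and 11.60, then 11.88 and 11.70, then 12.03 and 12.11, against 6.19 in the leaf. Neither differed between the joints by a call. All 6 samples thus carried LG1 and LA above the leaf level. A further joint marker, OSH71, was called higher in the second and the third joint than in the last, with its values given further on. The Gapdh control, whose 3′ minus 5′ signal tracks RNA quality, gave differences between 1.86 and 2.09 on the 6 arrays. Correlations across probe sets between the arrays of a group were 0.989, 0.995 and 0.993, and the number of arrays limits the precision.

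The second and the third joint had far fewer calls between them than either had with the last. Against the last joint, the second joint had 1539 probe sets called higher (2.69% of those tested) and 2101 called lower (3.67%). The third joint had 2490 called higher (4.35%) and 2644 called lower (4.62%) against the last joint. The third joint against the second had 9 called higher (0.0157%) and 15 called lower (0.0262%). The median absolute difference over all probe sets was 0.20 for the second joint against the last, 0.22 for the third against the last and 0.14 for the third against the second. Fewer cells of a type and less RNA per cell cannot be told apart in these whole joints. The counts of calls moved with single arrays: without the second joint's array 1 the second joint had 1983 calls against the last joint, in place of 3640, and without its array 2 it had 2241. Without the last joint's array 1 that count was 2359. Without the third joint's array 1 the third joint had 3210 calls against the last, in place of 5134.

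**Figure D1:**
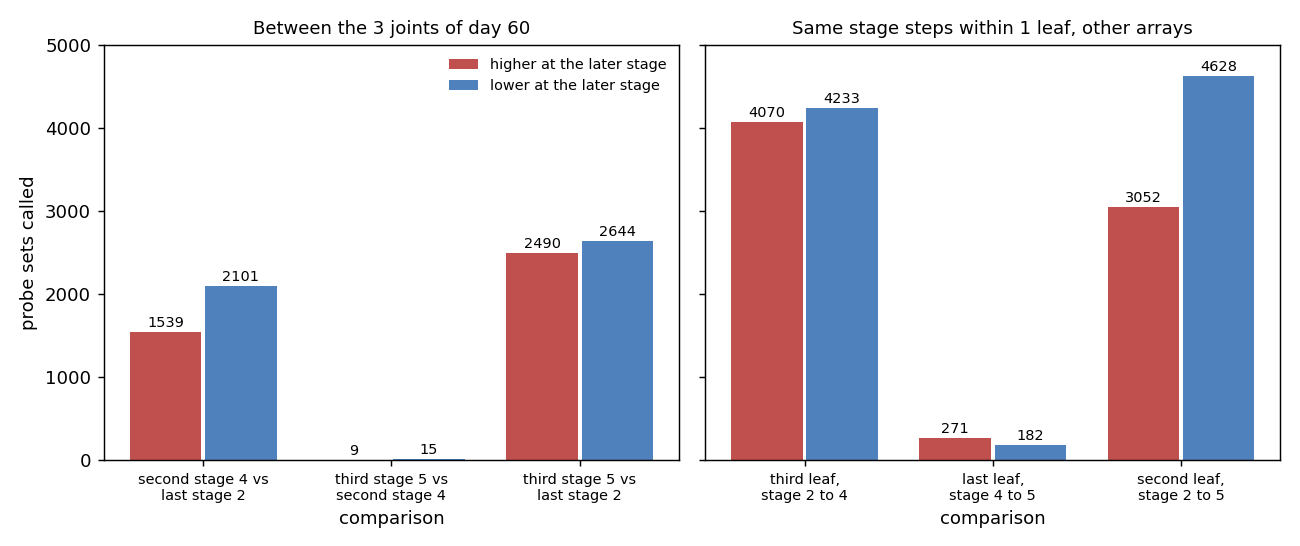
Number of probe sets called higher (red) and lower (blue) in each contrast, with the 3 contrasts between joints of day 60 on the left and the same steps of stage within 1 leaf, from other arrays, on the right. The contrast of the third with the second joint has 24 calls, and the contrasts with the last joint have 3640 and 5134.

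Of the probe sets tested, 1860 (3.25%) were higher in the last joint than in both others with no call between the others, and 1319 (2.3%) were lower in the last joint than in both. These hold 158 and 103 named genes. A stepwise course with both neighbouring steps called was found for 11 probe sets downward and 4 upward. The third joint alone stood high for 5 and low for 3, and the second joint alone stood high for 1. A further 2377 had 1 call or another combination. For the 2457 genes with a descriptive name, each represented by 1 probe set, the background was 116 higher (4.72%) and 183 lower (7.45%) in the second joint against the last. It was 199 higher (8.1%) and 245 lower (9.97%) in the third joint against the last, and 0 higher (0%) and 2 lower (0.0814%) in the third against the second. At an unadjusted p under 0.05, limma counted 75 named genes higher and 73 lower in that last contrast. The gene lists below were compiled by symbol and are read against these shares.

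**Figure D2:**
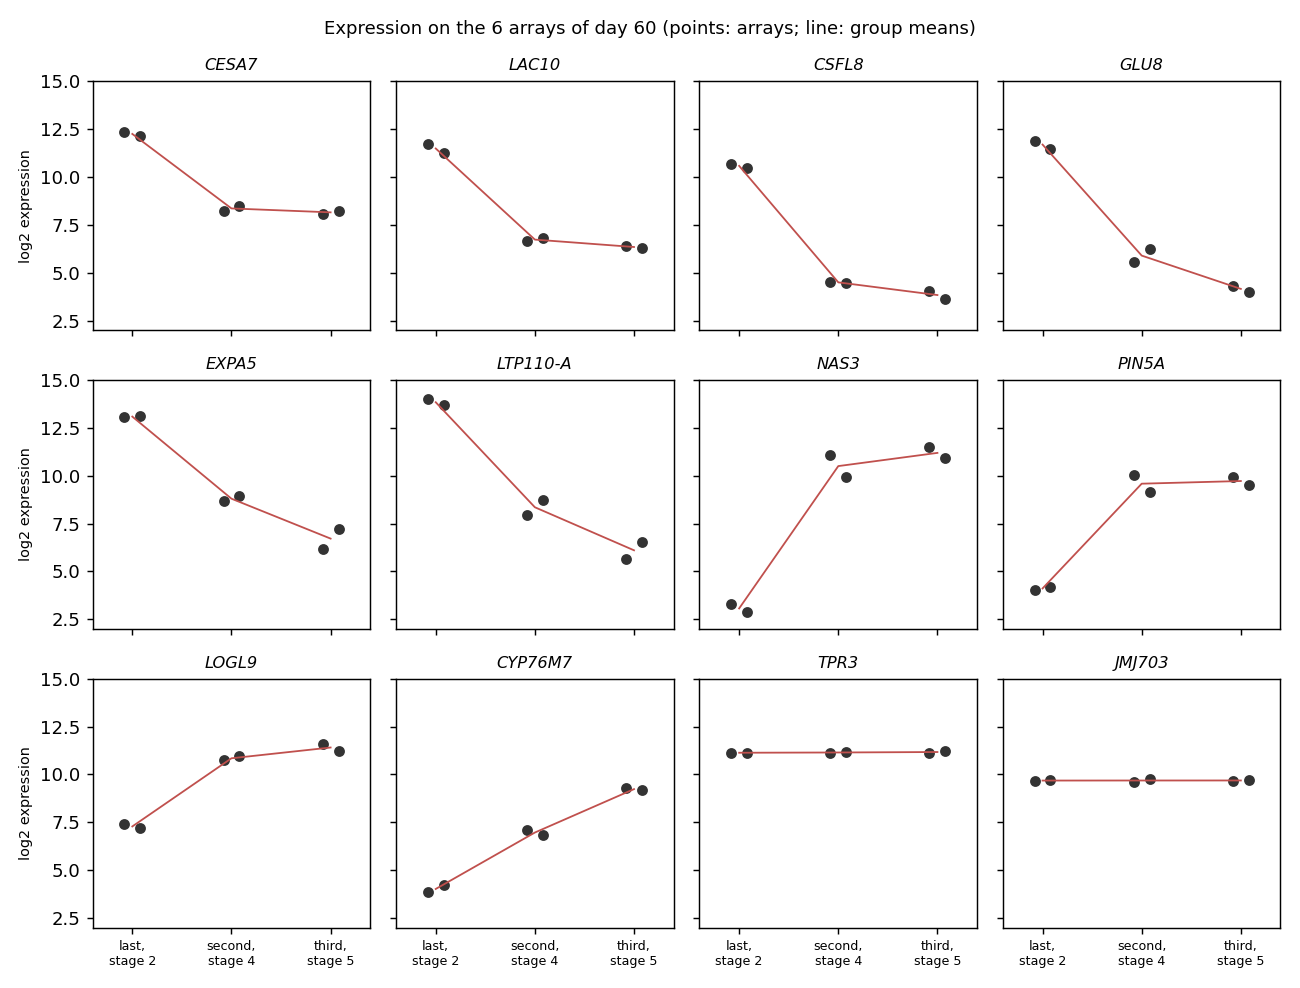
Log2 expression of 12 genes on the 6 arrays, with 1 panel per gene, points for single arrays and lines through the group means. The wall genes are high in the last joint on both arrays, NAS3 and PIN5A are high in both older joints, and TPR3 and JMJ703 are level.

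Genes of the secondary wall had the most uniform difference. All 4 members of the secondary wall cellulose list were called lower in the second and in the third joint than in the last joint, with medians of -3.65 and -3.62, where the median of all probe sets was 0.02 and 0.01. CESA7, a cellulose synthase of secondary walls, read 12.33 and 12.15 in the last joint, 8.23 and 8.48 in the second and 8.07 and 8.23 in the third. Only the last joint stood apart, with no overlap of its arrays with the others. The difference was -3.89 (SE 0.25, adjusted p 3.65e-08) for the second joint and -4.09 (adjusted p 1.23e-08) for the third. CESA4, of the same complex, read 12.53 and 12.54 against 9.28 and 9.37 and then 8.95 and 9.15. CESA9 differed by -3.61 and -3.56 from the last joint. BC1, a COBRA-like protein needed for cellulose deposition and stem strength, read 10.44 and 10.86, then 6.75 and 7.17, then 6.74 and 7.18, so the second and the third joint had the same mean to 2 decimals. All 4 members remained called when any 1 of the 6 arrays was left out. The 6 primary wall cellulose synthases had no call in either contrast, with medians of -0.44 and -0.67. Of these, 2 were alike in all 3 joints by the interval rule given further on.

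Lignin and phenylpropanoid genes were lower in the older joints for 6 of 31 members in both contrasts and higher for 0 of 31. LAC10, a laccase that oxidises lignin precursors, read 11.72 and 11.24 in the last joint, 6.63 and 6.83 in the second and 6.38 and 6.31 in the third. It differed by -4.75 (SE 0.34, adjusted p 1.09e-07) and -5.14 (adjusted p 2.89e-08). 4CL2, a 4-coumarate-CoA ligase at the entry to lignin synthesis, read 9.46 and 10.02, then 5.10 and 4.82, then 4.02 and 4.14. PRX74, a class III peroxidase, was at 10.93 and 10.16 in the last joint and between 3.34 and 4.45 on the 4 other arrays, a difference of -6.74 (SE 0.48, adjusted p 9.55e-08) for the second joint. The lignin count was 3 of 31 in the second joint without the last joint's array 1, and 3 of 31 in the third joint without its own array 2.

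Of 14 alpha-expansins, 5 were lower in the second joint and 6 in the third, and 0 were higher. EXPA5 read 13.05 and 13.12 in the last joint, 8.65 and 8.94 in the second and 6.20 and 7.23 in the third. EXPA1 read 13.02 and 13.37, then 11.40 and 10.98, then 9.83 and 9.31, so its values were lower from joint to joint with no overlap between groups. Its difference in the third joint was -3.63 (SE 0.50, adjusted p 7.98e-05), and the step between second and the third joint was -1.62 (adjusted p 0.653). Its call in the second joint, at -2.01, was lost when any 1 array of the last or of the second joint was left out, with adjusted p from 0.0607 to 0.142. The expansin count in the second joint was 2 without the last joint's array 1 or without either array of the second joint. In the third joint it was 3 without the last joint's array 1 or the third joint's array 1. Of 15 beta- and like-expansins, 3 were lower in both contrasts, and 2 were lower in the third joint without its array 1 or either array of the last joint. EXLA4, an expansin-like gene, read 9.62 and 8.66 in the last joint and between 4.11 and 4.53 on the other 4 arrays.

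Among 34 cellulose synthase-like and glucanase genes, 8 were lower in the second joint and 8 in the third, against 2 and 1 higher, which became 0 and 0 without the last joint's array 2, and also 0 without either array of the second joint and without the third joint's array 1. The count of those lower in the third joint was 5 without its array 1. CSFL8, a cellulose synthase-like gene of the CSLF family that makes mixed-linkage glucan, read 10.67 and 10.47 in the last joint, 4.51 and 4.48 in the second and 4.03 and 3.64 in the third. The difference was -6.08 (SE 0.36, adjusted p 1.12e-08) and -6.74 (adjusted p 2.12e-09). GLU8, an endo-1,4-beta-glucanase, read 11.90 and 11.47, then 5.57 and 6.21, then 4.32 and 3.99. It was the named gene with all 3 contrasts called, at -5.79 for the second joint, -7.53 for the third and -1.74 between these. The last of these calls, at an adjusted p of 0.0495, was lost in all 6 fits that left out 1 array, and the p was 0.0601 with the replicate number as a block.

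Surface and cell wall proteins included the largest falls among named genes. LTP110-A, a lipid transfer protein, read at least 13.66 on both arrays of the last joint, 7.97 and 8.73 in the second and 5.65 and 6.56 in the third. Its difference was -5.48 (SE 0.41, adjusted p 1.74e-07) and -7.73 (adjusted p 2.27e-09), and the step between the older joints was -2.25 (adjusted p 0.0697). Of the 5 cuticle and lipid transfer genes, 2 were called lower in each contrast, while 1 was called higher in the second joint and 0 in the third. The medians were -0.004 and -0.19. The mean level of the list was 11.5 on both arrays of the last joint, 10.4 and 10.6 in the second and 9.77 and 9.98 in the third. In the second joint 1 was called lower without the last joint's array 1. These genes also mark the epidermis, and the part of epidermal content in the differences was not tested. Of 9 germin-like genes, 3 were lower in both contrasts with any 1 array left out. In the second joint 0 were called higher and in the third 2, and the medians were 0.21 and 0.06. GER5 read 12.92 and 8.83 in the last joint and between 3.41 and 4.39 on the other 4 arrays, and GER8 read 9.93 and 8.44 against 3.27 to 4.14.

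Cell division genes were only partly lower. Of 33 kinesins, the motor proteins of the spindle and cell plate, 6 were lower in the second joint and 10 in the third, and 1 was higher in each, with medians of -0.57 and -0.90. The numbers lower were 3 without the second joint's array 1 and 4 without the third joint's array 1. KIN14H read 10.82 and 11.07 in the last joint, 8.62 and 8.65 in the second and 7.82 and 8.34 in the third, a difference of -2.31 (SE 0.41, adjusted p 0.00136) and -2.87 (adjusted p 0.000125). Of 37 cyclins, their kinases and inhibitors, 3 were lower in the second joint and 5 in the third, and 1 was higher in each. The shares lower over all named genes were 7.45% and 9.97%, so these counts lay near the background. The medians of the list were -0.19 and -0.09. KRP6, an inhibitor of cyclin-dependent kinases, read 8.95 and 7.47, then 3.97 and 3.86, then 3.24 and 3.68. CYCB2-1, a mitotic cyclin, read 8.28 and 5.19 in the last joint and between 4.12 and 4.57 elsewhere. Its call in the third joint, at -2.47 (adjusted p 0.0173), was lost at -0.93 (adjusted p 0.316) without the last joint's array 1.

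The 2 arrays of the last joint differed in such genes. The mean of the 37 cyclin-list genes was 8.28 on array 1 and 7.82 on array 2, and 7.68 to 7.81 on the 4 arrays of the older joints. In the stage 2 joints of the other leaves the same mean was 8.47 and 8.70 in the second leaf and 8.38 and 8.71 in the third. The second array of the last joint thus lay below the other 5 stage 2 arrays. Without array 1 of the last joint, 1 cyclin-list gene was called lower in the second joint, and without the third joint's array 1, 1 was called lower in the third. Of 34 replication and repair genes, 3 were higher and 1 lower in the second joint, and 5 were higher and 4 lower in the third. Those higher were 1 in the second joint without its array 1 or the last joint's array 2, and 2 in the third joint without its array 1 or the last joint's array 2. Those lower were 0 in the second joint without its array 2 or the last joint's array 1, and 1 in the third joint without its array 2 or the last joint's array 1. MCM7, a subunit of the replicative helicase, was lower at -1.64 and -1.47, and it lost both calls without the last joint's array 1, at -1.11 (adjusted p 0.122) and -0.94 (adjusted p 0.173). Of 11 histone and chromatin genes, 0 were called in the second joint and 1 was higher in the third, and of 11 tubulins 1 was higher in the second joint and 0 were called in the third. Both of these calls were lost without the last joint's array 2, and the tubulin's also without either array of the second joint.

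**Figure D3:**
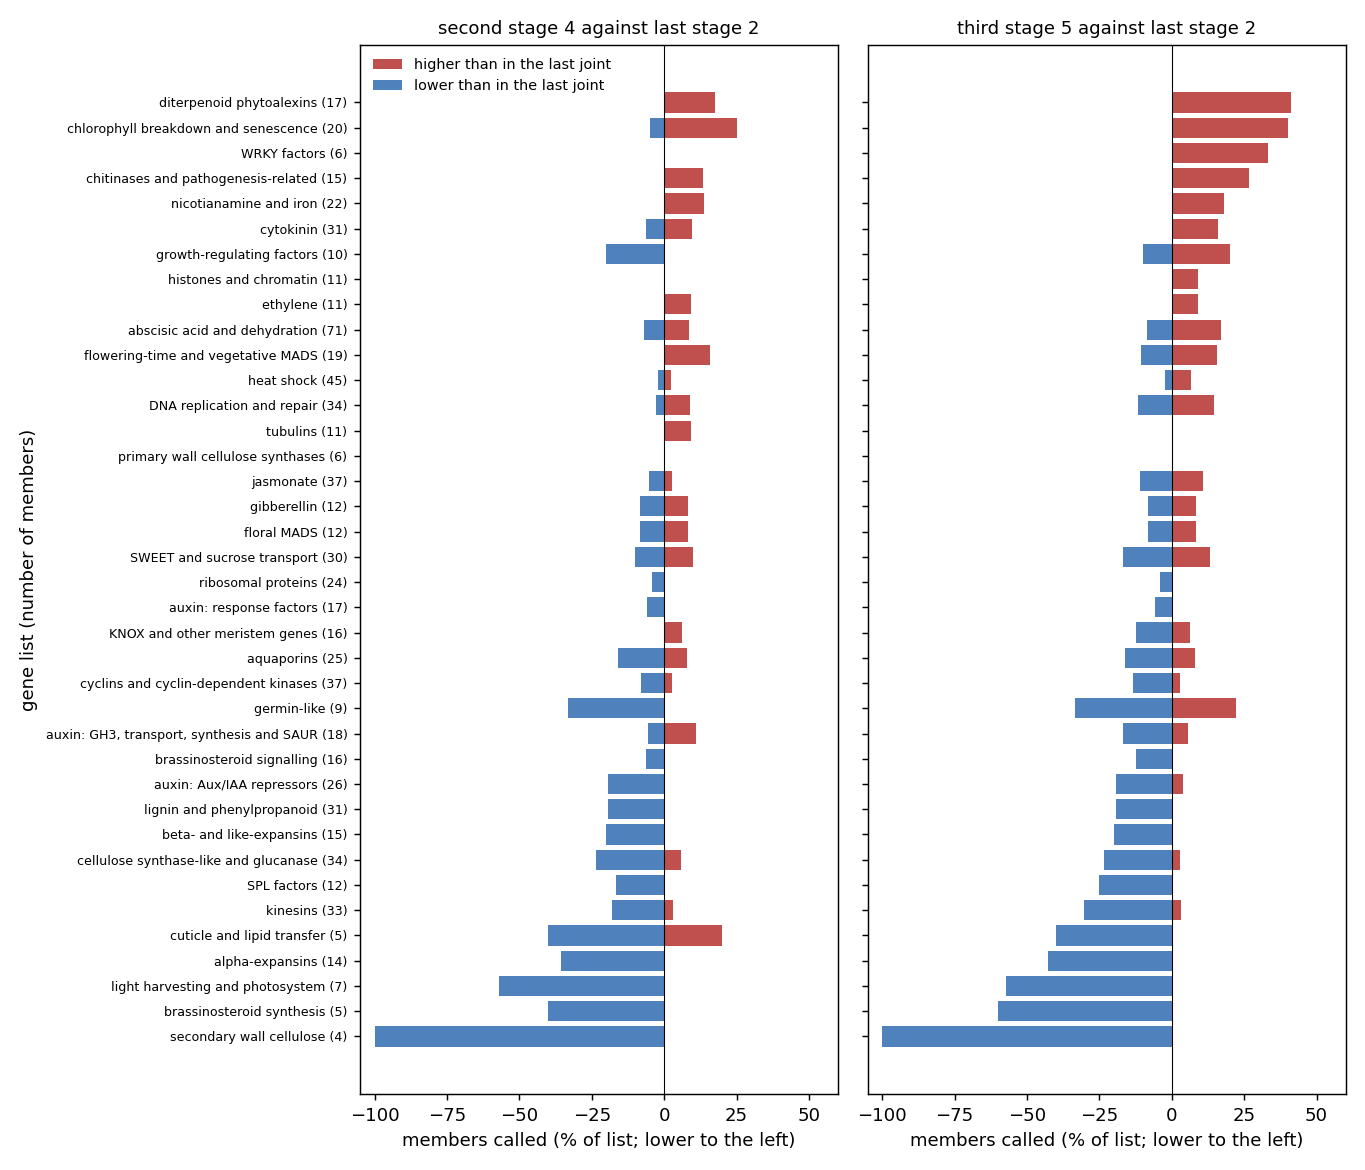
Percent of the members of each gene list called higher or lower in the second joint (left) and the third joint (right) against the last joint, with the number of members in brackets. All 4 members of the secondary wall list are lower in both, and in most other lists the larger share of members is uncalled.

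Of 26 Aux/IAA repressors of auxin signalling, 5 were lower in the second and 5 in the third joint, against 0 and 1 higher, and at least 5 were lower in each with any 1 array left out. IAA18 read 10.76 and 10.98 in the last joint, 8.20 and 8.64 in the second and 8.32 and 8.73 in the third, and IAA31 read 11.98 and 11.94, then 10.52 and 9.96, then 9.30 and 9.72. Of 17 auxin response factors, 1 was lower in each contrast, with 0 in the second joint without its array 1 or the last joint's array 1, and 8 were alike in all 3 joints, by the interval rule given further on. PIN5A, a carrier of the PIN auxin transport family, rose. It read 4.05 and 4.18 in the last joint, 10.01 and 9.15 in the second and 9.95 and 9.49 in the third. The difference was 5.47 (SE 0.36, adjusted p 3.94e-08) and 5.60 (adjusted p 1.73e-08), and it remained called with any 1 array left out.

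Among 5 brassinosteroid synthesis genes, 2 were lower in the second joint and 3 in the third. The counts were 1 in the second joint without either of its arrays or the last joint's array 1, and 1 in the third joint without its array 1. D11, a cytochrome P450 of that pathway, read 8.33 and 9.73 in the last joint and between 4.65 and 4.95 on the 4 other arrays, a difference of -4.24 (SE 0.53, adjusted p 5.58e-05) and -4.12 (adjusted p 4.67e-05). CYP85A1, which makes castasterone, read 8.60 and 7.45, then 6.26 and 6.63, then 6.11 and 6.58. Its call in the third joint, at -1.68 (adjusted p 0.0126), was lost at -1.11 (adjusted p 0.207) without the last joint's array 1 and at -1.44 (adjusted p 0.133) without the third joint's array 1. Of 16 brassinosteroid signalling genes, 1 was lower in the second joint and 2 in the third. The first count, the U-box gene TUD1 at -1.36 (adjusted p 0.0283), was 0 without any 1 array of the last or the second joint, and the other was 0 without the last joint's array 2 or the third joint's array 1. BU1, a helix-loop-helix gene that promotes bending, read 8.19 and 9.27, then 7.53 and 8.33, then 5.79 and 6.66. Its difference in the third joint of -2.50 (adjusted p 0.00326) lost the call at -1.96 (adjusted p 0.0597) without the last joint's array 2 and at -2.07 (adjusted p 0.0644) without the third joint's array 1. The receptor BRI1, the kinase GSK2 and the BU1 antagonist IBH1 had no call, at -0.41, 0.55 and -0.44 in the third joint. BZR1 and LIC, transcription factors of the pathway, and RGA1, a G protein subunit, were alike in all 3 joints.

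A few genes of other hormones rose in both older joints. LOGL9, of the family that activates cytokinins, read 7.39 and 7.18 in the last joint, 10.74 and 10.95 in the second and 11.61 and 11.20 in the third, a difference of 3.56 (SE 0.36, adjusted p 4.7e-06) and 4.12 (adjusted p 6.27e-07). Of 31 cytokinin genes, 3 were higher and 2 lower in the second joint, where 1 was higher without either of its arrays or the last joint's array 2 and 0 were lower without the last joint's array 1. In the third joint 5 were higher and 0 lower, and those higher were 1 without the last joint's array 2 or the third joint's array 2. AOS2, an allene oxide synthase of jasmonate synthesis, read 6.01 and 5.90, then 8.70 and 8.04, then 11.15 and 9.55. Of the 37 jasmonate genes, 1 was higher and 2 lower in the second joint, and 4 were higher and 4 lower in the third. Both counts of the third joint were smaller without its array 1. Over all named genes, 4.72% were higher and 7.45% lower in the second joint, and 8.1% and 9.97% in the third. The jasmonate counts thus lay near the background. EIL1B, an EIN3-like factor of ethylene signalling, read 5.90 and 5.79, then 8.50 and 8.27, then 10.08 and 9.52. It was the called member among 11 ethylene genes. Of 71 abscisic acid and dehydration genes, 6 were higher and 5 lower in the second joint and 12 were higher and 6 lower in the third. Those higher were 1 in the second joint without either of its arrays or the last joint's array 2, and 3 in the third joint without its array 1. Those lower were 1 in the second joint and 3 in the third without the last joint's array 2.

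Among named genes the largest rise in both older joints was that of NAS3. NAS3, a nicotianamine synthase of iron handling, read 3.28 and 2.87 in the last joint, 11.09 and 9.91 in the second and 11.48 and 10.90 in the third. The difference was 7.43 (SE 0.57, adjusted p 2.11e-07) and 8.12 (adjusted p 5.03e-08). It was called among 22 nicotianamine and iron genes of which 3 were higher in the second joint, 4 in the third and 0 lower. MST3, a monosaccharide transporter, read 8.16 and 7.69, then 10.70 and 10.80, then 11.80 and 11.74. SWEET14, a sugar exporter, read 3.82 and 3.80, then 7.19 and 6.94, then 8.19 and 7.53. SUS6, a sucrose synthase, went the other way, at 9.70 and 7.16 in the last joint, 4.19 and 3.78 in the second and 3.26 and 3.27 in the third. The sugar list of 30 thus had 3 higher and 3 lower in the second joint and 4 higher and 5 lower in the third, and 3 were lower there without the last joint's array 2 or the third joint's array 1. Of 25 aquaporins, 2 were higher and 4 lower in both contrasts. In the second joint 0 were higher without its array 2 or the last joint's array 1, and 3 to 6 were lower over the 6 fits with 1 array left out. NIP1-1, of the NIP aquaporins, read 12.11 and 11.87, then 9.15 and 8.99, then 8.74 and 8.32.

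Of 20 chlorophyll breakdown and senescence genes, 5 were higher and 1 lower in the second joint, and 8 were higher and 0 lower in the third. The numbers higher were 1 without the second joint's array 1 and 4 without the last joint's array 1. The 8 were 5 metallothioneins, which bind metals, and 3 NAC transcription factors, NAC010, NAC2 and NAC45. NAC010 read 5.39 and 4.95 in the last joint, 8.17 and 8.56 in the second and 8.06 and 8.28 in the third. The chlorophyll breakdown genes SGR and NYC1 had no call, at 0.40 and 0.26 in the third joint. Of 17 phytoalexin genes, 3 were higher in the second joint and 7 in the third, with medians of 0.72 and 2.24 and 0 lower. The numbers were 0 in the second joint without its array 1 or the last joint's array 1, and 3 in the third joint without its array 1 or the last joint's array 2. CYP76M7, a P450 of that pathway, read 3.84 and 4.21, then 7.10 and 6.84, then 9.30 and 9.17, so the 3 joints were in order with no overlap. Its difference in the third joint was 5.21 (SE 0.63, adjusted p 2.28e-05), and the step from second to the third joint was 2.27 (adjusted p 0.465). CPS2, the diterpene cyclase of the pathway, read 3.21 and 3.42, then 7.53 and 6.69, then 9.36 and 7.63.

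Light-harvesting and photosystem genes were lower in the older joints for 4 of 7 members in both contrasts. RCABP69, a chlorophyll-binding protein gene, read 11.41 and 11.60 in the last joint, 9.01 and 8.66 in the second and 8.95 and 8.38 in the third, a difference of -2.67 (SE 0.41, adjusted p 0.000395) and -2.84 (adjusted p 0.000145). CAB2R read 13.98 and 13.72, then 12.10 and 9.93, then 12.20 and 10.05, so array 2 of each older joint was far below array 1. Without those arrays its differences were -1.75 (adjusted p 0.185) and -1.65 (adjusted p 0.165). The mean of the 7 genes was 9.98 and 9.94 in the last joint, 9.22 and 8.48 in the second, 9.26 and 8.25 in the third and 11.3 and 11.2 in the leaf control. The number lower was 1 in the third joint without its array 2, and 2 in the second joint without its array 2 or the last joint's array 1. These genes mark green tissue, and the part of adjoining leaf in the values was not tested.

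Of the remaining lists, the SPL factors had 2 of 12 lower in the second joint and 3 in the third, with 1 in the second joint without either of its arrays or the last joint's array 1. IPA1, an SPL factor of plant architecture, read 7.45 and 6.60 in the last joint, 5.49 and 5.48 in the second and 4.82 and 5.16 in the third, with -2.04 (adjusted p 0.00063) in the third joint. SPL18 read 6.83 and 5.85 and then between 3.44 and 3.91. Of 16 KNOX and other meristem genes, 1 was higher in both contrasts and 2 were lower in the third joint, and the list mean stayed between 6.89 and 7.13 on all 6 arrays. Those lower were HOS66 and WOX6. HOS66, at -2.80 (adjusted p 0.0233), lost its call without any 1 array of the last or the third joint, with adjusted p from 0.0744 to 0.156. The gene called higher was OSH71, at 6.20 and 6.22, then 7.52 and 7.45, then 8.19 and 8.35, with 2.06 (adjusted p 1.73e-05) in the third joint and a mean of 3.88 in the leaf. Of 12 floral MADS genes, 1 was higher and 1 lower in both contrasts, and the list mean was between 4.41 and 4.58 on all 6 arrays. The gene higher was MADS1, at 1.16 (adjusted p 0.00428) in the second joint and 2.13 (adjusted p 9.49e-06) in the third. With 1 array left out, its differences ranged from 1.13 to 1.20 and from 2.09 to 2.17. The gene lower was MADS16, described further on. Of 24 ribosomal protein genes, 1 was lower in both contrasts, with 0 in either contrast without the last joint's array 2, and also 0 without the second joint's array 1 in the one and without either array of the third joint in the other.

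Between the second and the third joint, the 24 called probe sets matched 15 genes, of which GLU8 and WOX6 carry descriptive names. WOX6, a homeobox gene, read 6.75 and 7.21 in the last joint, 7.41 and 7.03 in the second and 4.95 and 5.33 in the third. The third joint stood apart, at -2.08 (SE 0.32, adjusted p 0.0345) from the second and -1.84 (adjusted p 0.000867) from the last. Among genes with only a locus identifier, LOC4341274 fell stepwise from 12.34 and 12.87 to 9.57 and 9.80 and then 5.80 and 5.40. LOC4336091 read 13.76 and 13.55, then 9.86 and 10.02, then 6.41 and 6.78. LOC4343925 climbed from 4.84 and 4.25 through 8.63 and 7.95 to a mean of 10.07. LOC4351146 was the probe set highest in the second joint, at 8.68 and 8.79, then 10.29 and 9.99, then 8.03 and 7.50. When any 1 array of the second or the third joint was left out, limma made 0 of these 24 calls, with 1608 to 2218 probe sets at an unadjusted p under 0.05. A fit of the 6 arrays alone made 228.

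The stage steps were then compared with the same steps inside 1 leaf, on arrays whose values do not enter the day 60 differences. The calls are not independent, because the model of all arrays gives each probe set the same spread in both. The third joint from stage 2 to stage 4, at days 50 and 55, had 4070 probe sets called higher (7.11%) and 4233 lower (7.39%). The second joint from stage 2 to stage 5, at days 55 and 65, had 3052 higher (5.33%) and 4628 lower (8.08%). The last joint from stage 4 to stage 5, at days 65 and 70, had 271 higher (0.473%) and 182 lower (0.318%). As on day 60, the step from stage 4 to stage 5 had the fewest calls of the 3.

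Most day 60 calls recurred. A probe set with a small shared spread is called more readily in both, so these shares are not a test on independent arrays. The sign of a difference does not rest on that spread. Of the probe sets higher in the second joint than in the last, 1159 (75.3%) were also called higher from stage 2 to stage 4 within the third leaf, and 3 were called lower. These are 28.5% of the calls of that step. Of those lower, 1558 (74.2%) recurred and 21 were opposite, and these are 36.8% of the step's calls. For the third joint against the last, 1766 of those higher (70.9%) and 2291 of those lower (86.6%) recurred in the second leaf's step from stage 2 to stage 5, with 1 and 4 opposite. They make up 57.9% and 49.5% of that step's calls. For the third joint against the second, 6 of 9 and 6 of 15 recurred between stages 4 and 5 of the last leaf, with 0 opposite. The median difference of the probe sets called lower in the third joint was -1.93 on day 60 and -2.38 within the second leaf. All 4 secondary wall genes were called lower in both steps, and PIN5A and NAS3 were called higher in both.

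**Figure D4:**
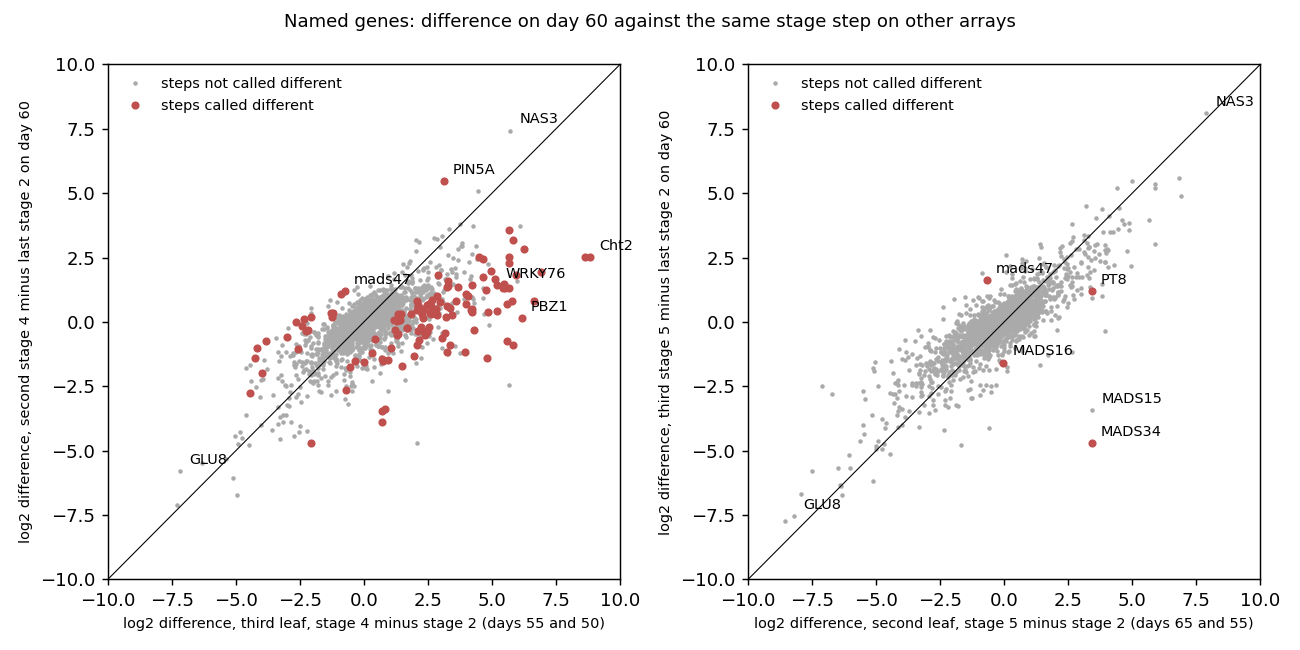
Log2 difference on day 60 (vertical) against the same stage step within 1 leaf on other arrays (horizontal), for each gene with a descriptive name. The second joint against the last is on the left, and the third against the last is on the right. Points on the line have equal differences, and red points, where the difference between the steps was called, include PBZ1, Cht2 and MADS34.

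The kinesins were called in smaller numbers on day 60 than in the other leaves. Against 6 and 10 of 33 lower here, 21 were lower from stage 2 to stage 4 in the third leaf and 22 from stage 2 to stage 5 in the second leaf. The difference between the steps was called for 2 of the 33 in the first comparison and 0 in the second. Light-harvesting genes had 4 of 7 lower on day 60, while within the leaves 2 of 7 were higher and 0 lower in the first step and 0 were called in the second. The difference between steps was called for 1 of the 7 in the first comparison and 0 in the second. For RCABP69 the steps within leaves were -1.10 and -0.95, without a call. The 6 primary wall cellulose synthases, with 0 called on day 60, had 1 lower in the third leaf's step and 5 lower in the second leaf's. Their medians in these steps were -0.76 and -1.25, and the difference between steps was called for 0 of the 6 in both comparisons.

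Genes alike in the 3 joints were defined by intervals, because a missed threshold does not show equal levels. A probe set was alike when the 95% interval of each of its 3 differences lay wholly within a 2-fold change either way, and expressed when its mean over the 6 arrays was at least 7. Of 18565 expressed probe sets, 7950 (42.8%) were alike, 3261 were called in at least 1 contrast and 7354 were neither. Leaving out 1 of the 6 arrays left between 6119 and 6616 alike, and intervals within 1.5-fold left 1857. Among the named genes, 775 were alike. The ribosomal protein list had 22 of 24 members alike, the brassinosteroid signalling list 6 of 16 and the cyclin list 12 of 37.

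TPR3, a TOPLESS-related corepressor, read 11.12 and 11.14 in the last joint, 11.13 and 11.16 in the second and 11.12 and 11.22 in the third, and the interval of the third joint against the last ran from -0.22 to 0.30. JMJ703, a histone demethylase, read 9.66 and 9.71, then 9.61 and 9.76, then 9.64 and 9.73, with an interval from -0.33 to 0.34. GLYI-11, a glyoxalase that detoxifies methylglyoxal, was between 13.32 and 13.41 on all 6 arrays. The proteasome subunit PBF1 stayed between 11.18 and 11.42, and the chloroplast protease FTSH1 between 10.10 and 10.46. Their groups overlapped in each of these 5 genes. Within leaves, 571 (7.18%) of the alike probe sets were called in the third leaf's step, 28 (0.352%) in the last leaf's and 318 (4%) in the second leaf's. Over all expressed probe sets these shares were 26.5%, 1.30% and 25.4%.

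The difference between the day 60 contrast and the step within a leaf was tested directly. It was called for 1564 probe sets (2.73%) for the second joint against the last, 1 (0.00175%) for the third against the second and 23 (0.0402%) for the third against the last. These counts rest on few arrays: without array 2 of the second leaf's stage 5 the last count was 2522, and without the last joint's array 1 it was 320. The first count was 653 without array 2 of the second joint at stage 4 and 2562 without array 1 of the third leaf's stage 2. Array 1 of the second joint at stage 5, which enters the second leaf's step and the last comparison, had an upper quartile of 7.50. The other arrays had 7.90 to 8.07. The 2 arrays of its group correlated at 0.971, the lowest of the groups, and without array 2 it stood alone for that group. Its part in the counts was not tested beyond fits without it. Array 2 of the third joint at stage 4, which enters the first comparison, had a Gapdh difference of 3.78 against at most 2.09 on day 60. With the Gapdh difference as a covariate the first count was 582. The part of RNA quality in it was not tested beyond that.

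Of the alike probe sets, 158 had a called step in the third leaf that also differed from day 60 by a call, 60 with a rise in that leaf and 98 with a fall. For the other 2 steps the number was 0 with all arrays, but it was not 0 in every fit that left out 1 array. The 158 became 35 without array 2 of the second joint at stage 4, 338 without array 1 of the third joint at stage 2, and 49 with the Gapdh covariate. PBZ1, a defence protein of the PR-10 family, read 13.53 and 13.40 in the last joint, 13.77 and 13.45 in the second and 13.80 and 13.12 in the third. In the third leaf it rose by 6.16 from stage 2, where it read 6.72 and 6.96. The steps differed by -6.02 (adjusted p 1.88e-05), and this stayed called in all 8 fits that left out 1 array of the comparison.

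Several defence genes had smaller differences on day 60 than within the third leaf. Of 15 chitinase and pathogenesis-related genes, 2 were higher in the second joint and 4 in the third joint of day 60, 9 were higher from stage 2 to stage 4 in the third leaf, and the difference between steps was called for 7. Cht2, a chitinase, read 8.77 and 7.29 in the last joint at stage 2 and 3.34 and 3.33 in the third joint at that stage. On day 60 the second joint was 2.52 higher than the last (adjusted p 0.000763), while in the third leaf the step was 8.84. The steps differed by -6.32 (adjusted p 1.98e-05), in all 8 fits with 1 array left out, and by -6.53 (adjusted p 0.00018) without the array with the high Gapdh difference. Cht-1, another chitinase, differed by -5.84 and the WRKY factor gene WRKY76 by -3.75, both also in all 8 fits. The second leaf differed from the third at stage 2. There Cht2 read 9.05 and 7.99, Cht-1 8.67 and 7.91, WRKY76 10.54 and 11.00 and PBZ1 12.73 and 12.52. For the third joint against the last, set against the second leaf, the steps differed by 0.06, -0.15, -0.27 and -1.26 in that order. None of these was called (adjusted p 0.987, 0.972, 0.93 and 0.489 in limma). Of 6 WRKY genes, 0 were called in the second joint of day 60, and 5 were called higher in the third leaf's step.

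Of the MADS-box genes of flowering, MADS34 fell on day 60 from the youngest to the opening joint and rose between the same stages within the second leaf. MADS34, a SEPALLATA-like gene known from panicle development, read 10.62 on both arrays of the last joint, 9.55 and 9.50 in the second joint and 5.90 on both arrays of the third. The third joint differed from the last by -4.72 (SE 0.64, adjusted p 7.11e-05). From stage 2 to stage 5 of the second leaf it rose by 3.43, and the steps differed by -8.15 (SE 0.90, adjusted p 0.00337), which lay between -9.43 and -6.86 and was called in all 8 fits with 1 array left out. At stages 2, 4, 5 and 6 the group means of MADS34 were 10.62, 11.74, 11.10 and 11.18 in the last joint. They were 5.04, 9.53, 8.46 and 9.67 in the second joint and 4.12, 4.42, 5.90 and 6.16 in the third, and the leaf control had 4.02. At each stage the last joint had the highest mean and the third joint the lowest.

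MADS15, an APETALA1/FRUITFULL-like gene with 3 probe sets, also fell on day 60 and rose within the second leaf. It read 11.46 and 11.92 in the last joint, 9.56 and 10.08 in the second and 7.99 and 8.54 in the third on its brightest probe set. Its difference in the third joint of -3.42 (adjusted p 0.0135) lost the call without the last joint's array 1 (adjusted p 0.0553), its array 2 (adjusted p 0.0920) or the third joint's array 1 (adjusted p 0.114). Within the second leaf MADS15 rose by 3.44. At stage 2 it read 6.95 and 5.07 in the second joint and 8.77 and 6.54 in the third, so the arrays of each group lay far apart. Unlike for MADS34, the third joint was thus not below the second at that stage. The steps differed by -6.87 (adjusted p 0.0693) on that probe set and by -6.47 and -6.21 on the others (adjusted p 0.0225 for both, called in 4 of 8 fits). MADS14, of the same group, had no call at -1.16 (adjusted p 0.342), and a call with the same difference (adjusted p 0.0019) when only the 6 arrays were fitted.

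MADS16, a B-class floral gene, read 8.83 and 9.28 in the last joint, 7.95 and 7.99 in the second and 7.54 and 7.42 in the third, a difference of -1.58 (SE 0.17, adjusted p 5.06e-06) for the third joint. Its step in the second leaf was -0.04, and the steps differed by -1.54 (adjusted p 0.0232), in 3 of 8 fits with 1 array left out. The gene mads47, of the SVP group of MADS-box genes, read 7.63 and 7.26, then 8.66 and 8.64, then 9.03 and 9.09, a difference of 1.61 (SE 0.21, adjusted p 5.88e-05) for the third joint. Within the second leaf mads47 moved by -0.66, and the steps differed by 2.28 (adjusted p 0.0187), in 4 of 8 fits. Its group means were 7.45 to 8.01 in the last joint over the 4 stages, 8.49 to 9.40 in the second and 8.84 to 9.61 in the third, so the last joint was lowest at all its stages.

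**Figure D5:**
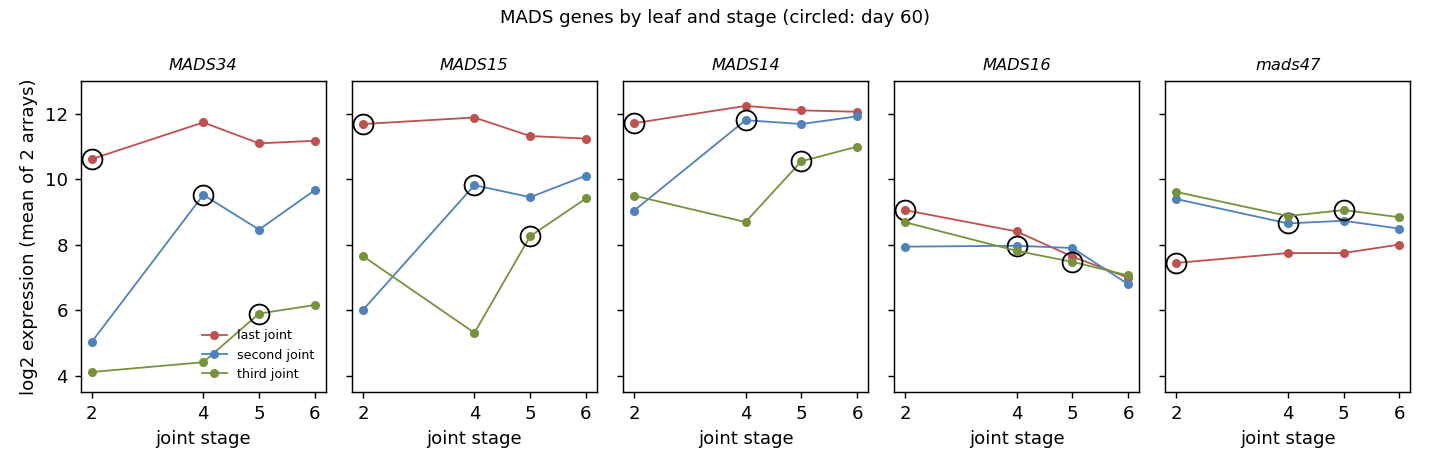
Mean log2 expression of 5 MADS-box genes by stage, with 1 line per leaf position and circles around the 3 groups of day 60. MADS34 is highest in the last joint at all stages, and mads47 is lowest there.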

How the data were processed

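The deposited values are log2 expression values of Affymetrix rice arrays, normalised by the authors with RMA, per the submitters' processing notes. Its version is not given in the sources used here. No value was rescaled. Of 57381 probe sets, 123 are controls and were not tested. By the platform annotation and the RefSeq gene table of assembly ASM3414082v1, 22436 of the 57258 tested probe sets match 1 gene, 95 several and 34727 none, which are unnamed here. No genome or sequence table was used, so no sequence is printed.

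All 26 arrays entered 1 model in limma 3.58.1 (R 4.3.3), with 13 group means and no block, leaving 13 residual degrees of freedom. Calls needed an adjusted p under 0.05 over all probe sets and at least a 2-fold difference, two-sided. The model was tested on simulated data. Replicate numbers do not pair these samples by any label. Alternatives were a replicate block, quantile normalisation, a filter on dim probe sets, 1 probe set per gene, the Gapdh difference as a covariate, only the 6 arrays, a 1.5-fold treat test, stricter intervals and each array left out.

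The groups, the 38 gene lists, made from symbol patterns less 56 wrong matches, and the naming rule were chosen with earlier results of these data known. The rule takes the largest rises and falls of each contrast, the most apart members of each pattern, each list's 2 members with the largest called change, the most alike genes, alike genes with a called step elsewhere, and 19 genes of leaf angle, hormones, flowering and senescence. CESA4, CESA9, MST3, SWEET14, OSH71, mads47, NAC2, NAC45, PT8 and the locus identifiers were named after their values were seen.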

Additional observations from a re-analysis of the deposited data

Results flagged for a closer look

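A difference between a day 60 contrast and the same step of stage within 1 leaf was called for 1564 probe sets for the second joint against the last, for 1 for the third against the second and for 23 for the third against the last. Values below are the day 60 difference less the step within the leaf, in log2. Each was called in limma at an adjusted p under 0.05.

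For the second joint against the last, set against the third leaf, defence genes lay below the third leaf's step, Cht2 at -6.32, PBZ1 at -6.02, Cht-1 at -5.84, WRKY76 at -3.75 and WRKY24 at -3.28. The metal genes NAAT1 and MT1A differed by -4.96 and -3.36. The heat shock factor gene HSF10 differed by -2.92, the expansin-like EXLA4 by -2.64, DAO by -2.30, LOGL9 by -2.10, EIL1B by -1.94, RBCS by -1.85, PSK5 by -1.60 and APX8 by -1.50. Values above the third leaf's step were 2.36 for PIN5A, 2.20 for SPL6, 1.96 for TUB7, 1.73 for TPPII, 1.66 for BSL2, 1.58 for XBOS33 and 1.35 for BASS1. Cht2, PBZ1, Cht-1, WRKY76, PSK5 and XBOS33 were called in all 8 fits that left out 1 array of the comparison.

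For the third joint against the last, set against the second leaf, MADS34 differed by -8.15, MADS16 by -1.54 and mads47 by 2.28. MADS15 differed by -6.47 and -6.21 on its less bright probe sets, and PT8 by -2.07 and -2.20 on separate probe sets. In the comparison with the third leaf, mads47 and PT8 also differed by a call, at 1.94 for mads47 and at -4.31 and -3.45 for PT8. The 1 probe set of the third comparison belongs to GRXC1, a glutaredoxin gene, at -4.20 (adjusted p 0.0331).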

How the results depend on the processing

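The counts of calls for the second and the third joints against the last kept within 1.5 times of 3640 and 5134 in most settings. Among settings that left out no array, the exceptions were 1488 and 2425 with a treat test at 1.5-fold, and 3339 for the third joint with 1 probe set per gene. Some fits with 1 array left out also fell outside 1.5 times, for both counts. With 1 array left out, 1983 to 3486 and 3210 to 4901 remained. The 24 calls between second and the third joint were the least stable, at 8 with quantile normalisation, 39 with dim probe sets removed, 16 with 1 probe set per gene, 45 with the Gapdh covariate, 228 with only the 6 arrays, 0 with treat and 0 to 23 with 1 array left out. Replicate numbers gave correlations of deviations of 0.11, 0.066 and 0.248 between the groups. The replicate block also gave 24 calls, not all the same, since GLU8 lost its call (adjusted p 0.0601), and raised the 23 differences of steps of the third joint to 36.

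Quantile normalisation gave 1 stepwise rise, 4 stepwise falls, 2 probe sets high and 1 low in the third joint alone and 0 high in the second joint alone, 5 shared calls between stages 4 and 5, 41 differences of steps for the third joint and 5 alike with a called step in the second leaf. With dim probe sets removed there were 7 rises, 19 falls, 8 high in the third joint alone and 20 shared calls. With 1 probe set per gene there were 5267 alike, 2 rises, 874 low in the last joint, 2 high in the third joint and 0 in the second, 2702 shared calls with the second leaf, differences of steps of 647, 2 and 13, and 49 alike with a called step in the third leaf. The Gapdh covariate gave 12 rises, 19 falls, 10 high in the third joint, 2 shared calls between stages 4 and 5, differences of steps of 582 and 0, and 49 and 1 alike with a called step in the third and the second leaf. Only the 6 arrays gave 57 rises, 55 falls, 49 high and 37 low in the third joint and 13 high and 6 low in the second. Intervals within 1.5-fold left 1857 alike. Without array 2 of the third joint at stage 4 and array 1 of the second at stage 5, chosen after seeing the data, there were 27 shared calls between stages 4 and 5, 5 differences of steps there, and 1 and 4 alike with a called step in the last and second leaf.

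With 1 array left out, ranges were 6119 to 6616 alike, 1197 to 1691 high and 677 to 1129 low in the last joint, 0 to 12 stepwise falls, 0 to 4 rises, 0 to 5 high and 0 to 4 low in the third joint, and 0 to 0 high and 0 to 1 low in the second. Shared calls ranged from 1600 to 2887 for the third leaf, 0 to 22 for the last and 2670 to 4191 for the second. Differences of steps ranged from 653 to 2562, 0 to 22 and 3 to 2522. Alike with a called step ranged from 35 to 338, 0 to 1 and 0 to 309.

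The naming rule favours large changes, so the counts here do not stand for all named genes. Of 132 called differences of the genes it picked, 83 stayed called with any 1 array left out and 49 were lost at least once. In the third joint against the last, 4 uncalled genes changed sign with 1 array left out: BZR1 ranged from -0.082 to 0.049 (without the last joint's array 2), LIC from -0.069 (without the third joint's array 2) to 0.29, GH3.1 from -0.75 to 0.15 and NYC1 from -0.042 to 0.56 (both changed without the last joint's array 1). The causes were not tested. The number of arrays limits the precision.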
